A study of Mus musculus with 19 samples.

Results

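The insulin-like growth factor (IGF) genes were read in mouse C2C12 cells that overexpressed histone deacetylases HDAC4 and HDAC5 and in soleus muscle of db mice. The genes were the ligands Igf1 and Igf2, the receptors Igf1r and Igf2r and the binding proteins Igfbp2 to Igfbp7. Every probe that the array design names for one of these genes was taken, which gave 21 of 41174 probes and 10 of 27425 gene names.

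IGF1 and IGF2 are secreted growth factors that bind the receptor tyrosine kinase encoded by Igf1r, which signals through insulin receptor substrates to PI3K, AKT and mTOR. Igf2r encodes a receptor that takes up IGF2 for degradation in lysosomes and also carries mannose 6-phosphate tagged enzymes. The binding proteins hold IGFs outside the cell and limit or deliver them to the receptor, and in muscle the IGF system is known for driving both proliferation and differentiation of myoblasts, with Igf2 and Igfbp5 as autocrine products of differentiating cells.

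The cell groups were C2C12 myoblasts, a mouse muscle line, with empty plasmids (WT, 6 arrays) and C2C12 myoblasts carrying plasmids for wild-type human HDAC4 and HDAC5 (HDAC4&5, 6 arrays). Both had been selected with hygromycin and geneticin at 500 µg/mL each and were harvested as growing cells 48 h after seeding. Whether each line was a clone or a pool is not given in the sources used here. Per the methods a group had 3 biological replicates, fewer than the 6 arrays of each cell line, of which 2 lay on each of 3 slides. Which arrays share a culture is not given, so p-values over 6 against 6 arrays measure the spread between arrays, part of which may be technical. The animal groups were whole soleus muscle of male mice on the C57BL6J background, aged 12 weeks and fasted for 5 h, either heterozygous littermates (Con, db -/+, 3 arrays) or mice lacking a working leptin receptor in all tissues (db, db +/+, 4 arrays). The study asked which genes HDAC4 and 5 regulate in muscle cells and whether they move in the same way in obese muscle.

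Values are 1-colour Agilent intensities on the log2 scale, given relative to the 75th percentile of the same array, so that 0 is the brightness of that percentile. A value compares 1 probe between arrays and not 1 gene with another. The 75th percentile intensity ran from 494 to 1691 on the C2C12 arrays and from 153 to 686 on the soleus arrays. Replicates of a group correlated across probes with Pearson r of at least 0.977 in cells and at least 0.912 in muscle. The C2C12 arrays lay on 3 slides with both groups on each, and the soleus arrays on slides 4 and 5, also with both groups on each. On soleus slide 4 the 75th percentile was 153 to 232, and on slide 5 it was 555 to 686. The mouse Hdac5 probe was higher in HDAC4&5 cells by 1.42 on the log2 scale (standard error 0.27, limma adjusted p = 0.000388), and the Hdac4 probe differed by -0.05 (adjusted p = 0.366). The plasmids carry human genes, and how well mouse probes read them was not tested.

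The markers of the labelled cell type differed between the cell lines. Of 10 myogenic markers, 9 were tested and all 9 fell in HDAC4&5 cells, and Myod1, Mef2c, Ckm, Actn2 and Ttn were well above background on none of these arrays, Actn2 on no WT array either. The summed level of the list was 146 to 307 times the 75th percentile in WT cells and 5.7 to 7.25 times in HDAC4&5 cells. Of 7 fibroblast markers, 5 were tested, 4 rose and 1 fell, with summed levels of 38.2 to 45.9 and 85.5 to 102 times the 75th percentile. The part of these differences in the IGF results was not tested.

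A probe of each of 3 genes is shown because these genes carry the largest difference in muscle against cells (Igf1), a signal saturated on every WT array (Igfbp2) and the smallest p in db muscle (Igfbp4). For Igf1 this is the brightest probe, which differed by 8.31, while the largest difference, 9.75, was that of A_51_P147942. Each is printed 5′ to 3′, and capitals mark the longest run of codons without a stop in the 3 forward frames. Positions are on mm9, the build of the array files, and no annotation of that build was used here, so exons and untranslated regions are not given. The Igf1 probe A_52_P536434 lies at chr10:87376418-87376477 on the plus strand, the Igfbp2 probe A_51_P423308 at chr1:72898677-72898736 on the plus strand, and the Igfbp4 probe A_51_P398971 at chr11:98909591-98909650 on the plus strand.
Igf1 A_52_P536434: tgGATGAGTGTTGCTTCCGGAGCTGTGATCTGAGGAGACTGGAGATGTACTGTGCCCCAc
Igfbp2 A_51_P423308: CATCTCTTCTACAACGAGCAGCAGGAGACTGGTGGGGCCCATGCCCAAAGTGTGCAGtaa
Igfbp4 A_51_P398971: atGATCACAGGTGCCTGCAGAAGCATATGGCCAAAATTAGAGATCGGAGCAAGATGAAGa
In the frame shown, the Igfbp2 probe ends on a stop codon.

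In HDAC4&5 cells the IGF genes moved apart. Igf2, Igf1r, Igfbp2, Igfbp4 and Igfbp5 fell, while Igf2r, Igfbp3 and Igfbp6 rose. The falls of some dim probes were not seen with normexp, a correction that fits background and signal together. It was run with an offset of 50, a constant added to each intensity. With normexp, Igf2 A_51_P516833 turned to 0.01, Igfbp4 A_51_P398971 to 0.05 and Igf1r A_52_P668647 to 0.26. The part of the offset and that of the background correction in these values were not tested apart. Folds and bounds here hold for the main scaling, and normexp gave smaller differences for probes that are dim in 1 group. The largest falls were those of Igfbp2 (at least 276-fold) and Igfbp5 (614-fold). Of the 21 probes, 14 (8 genes) met the filter and were tested. All 14 passed an adjusted p of 0.05 in limma, 3 higher and 11 lower, beside 68.4% of the 21432 probes tested on the whole array (36.5% higher, 31.9% lower). The groups did not overlap for 13 of the 14, beside 52.4% of all probes. With normexp 9 passed, 3 higher and 6 lower, beside 48.9% of all probes (28.1% higher, 20.8% lower). With the deposited matrix 7 of 9 passed, 1 higher and 6 lower, beside 48.9% of all probes (19.2% higher, 29.7% lower). The median difference of the 14 was -1.60 on the log2 scale and that of all probes 0.055. The filter asked for a signal above background throughout 1 group only, so probes that are dim in the other group entered the test because they differ, and the counts are not evidence about the genes as a set. With the replicate number as a block all 14 passed, beside 76% of all probes. With the arrays of a group on 1 slide averaged, which leaves 3 values against 3, all 14 passed again (largest limma adjusted p = 0.0236), beside 57.4% of all probes. With the requirement in both groups, 6 probes were left and all 6 passed, 2 higher and 4 lower. The share of all probes that passed under this filter is not given, so this count has no reference.

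**Figure D1:**
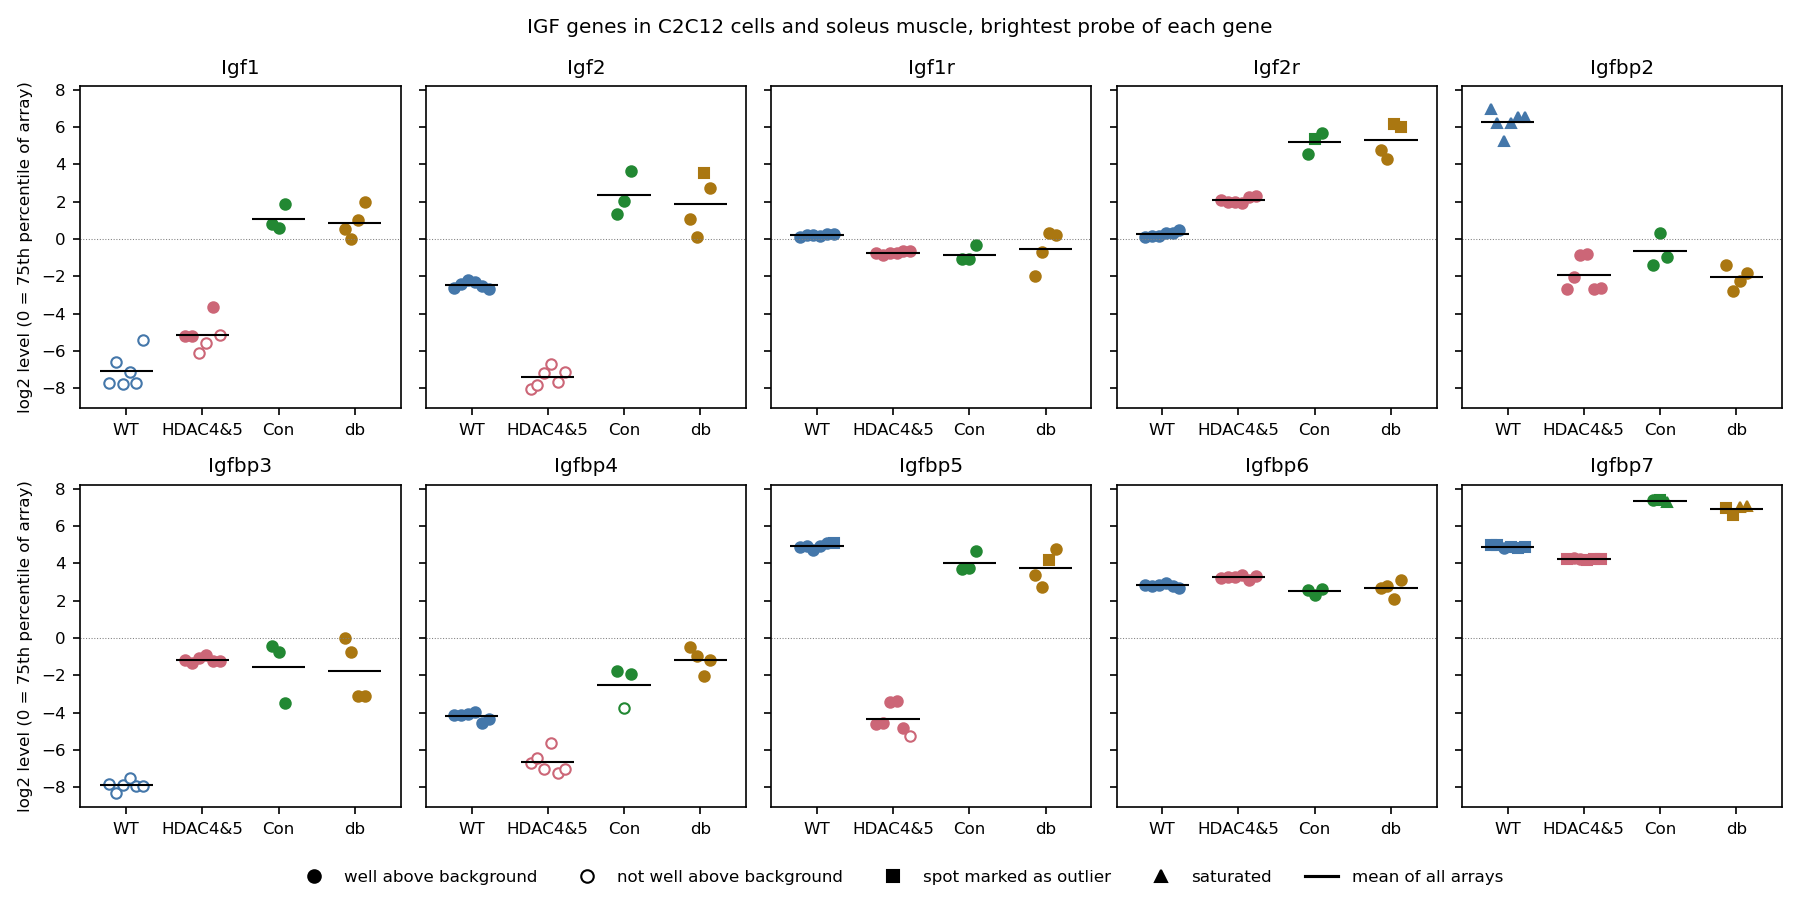
Level of the brightest probe of each IGF gene on every array (y axis: log2 units from the array's 75th percentile) in C2C12 WT and HDAC4&5 cells and in Con and db soleus muscle; filled points are well above background, open points are not, squares are spots marked as outliers, triangles are saturated and lines are means of all arrays. Igfbp2 and Igfbp5 sat at means of 6.29 and 4.94 in WT cells and at -1.94 and -4.34 in HDAC4&5 cells, while Igf1 was bright in muscle only.

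Among the ligands, Igf2 was the one measured in WT cells. Its probe A_51_P516826 (chr7:149836673-149836709 on mm9, minus strand, as far as the files place it) read -2.67 at the lowest, -2.49 at the median and -2.20 at the highest in the 6 WT arrays. In HDAC4&5 cells it read -8.01, -7.47 and -6.67, and no array was well above background. All 6 HDAC4&5 arrays thus lay below every WT array. The fitted difference was -4.97 (standard error 0.20, limma adjusted p = 1.05e-10), and against the dimmest signal well above background Igf2 was at least 7.51-fold lower. With normexp the difference was -1.13 (adjusted p = 0.0137). The other Igf2 probe, A_51_P516833, fell by 2.41 (standard error 0.24, adjusted p = 1.05e-06), or at least 1.86-fold. Within the 3 slides the first probe differed by -5.39, -4.67 and -4.86.

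Igf1 was well above background on no WT array with any of its 4 probes and on only some or none of the HDAC4&5 arrays, so it was not tested in cells. In HDAC4&5 cells A_52_P536434 was well above background on 3 of 6 arrays, with values from -6.10 to -3.63 against -7.76 to -5.41 in WT cells. The probe A_51_P147942 read -5.85 to -5.38 against -8.22 to -7.44, without overlap (p = 0.00216 in a two-sided exact permutation test, which cannot go lower with 6 arrays a group), but it was well above background on only 1 HDAC4&5 array. The probes A_52_P306327 and A_52_P351116 were well above background on no C2C12 array. No fold is given, since both groups lay at or near background.

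The receptors moved in opposite directions. Igf2r (A_51_P125467, chr17:12875253-12875263 on mm9 as far as the files place it, minus strand) read 0.12, 0.26 and 0.48 in WT cells at the lowest, median and highest array. In HDAC4&5 cells the same probe read 1.93, 2.02 and 2.29. Every HDAC4&5 array was above every WT array, by a mean of 1.82 (95% confidence interval 1.64 to 2.00, 3.52-fold, limma adjusted p = 3.87e-10). Within slides the difference was 1.87, 1.71 and 1.86. Igf1r was lower with all 4 of its probes, which read different stretches at chr7:75332515-75377057. The brightest, A_51_P474538, read 0.11 to 0.28 in WT cells and -0.86 to -0.64 in HDAC4&5 cells, a difference of -0.94 (95% confidence interval -1.06 to -0.83, adjusted p = 2.43e-09). The other Igf1r probes fell by 0.89 (A_51_P318365), 0.87 (A_52_P634111) and 0.63 (A_52_P668647), and only the last one overlapped between groups. With normexp, A_52_P634111 differed by -0.32 (adjusted p = 0.17).

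**Figure D2:**
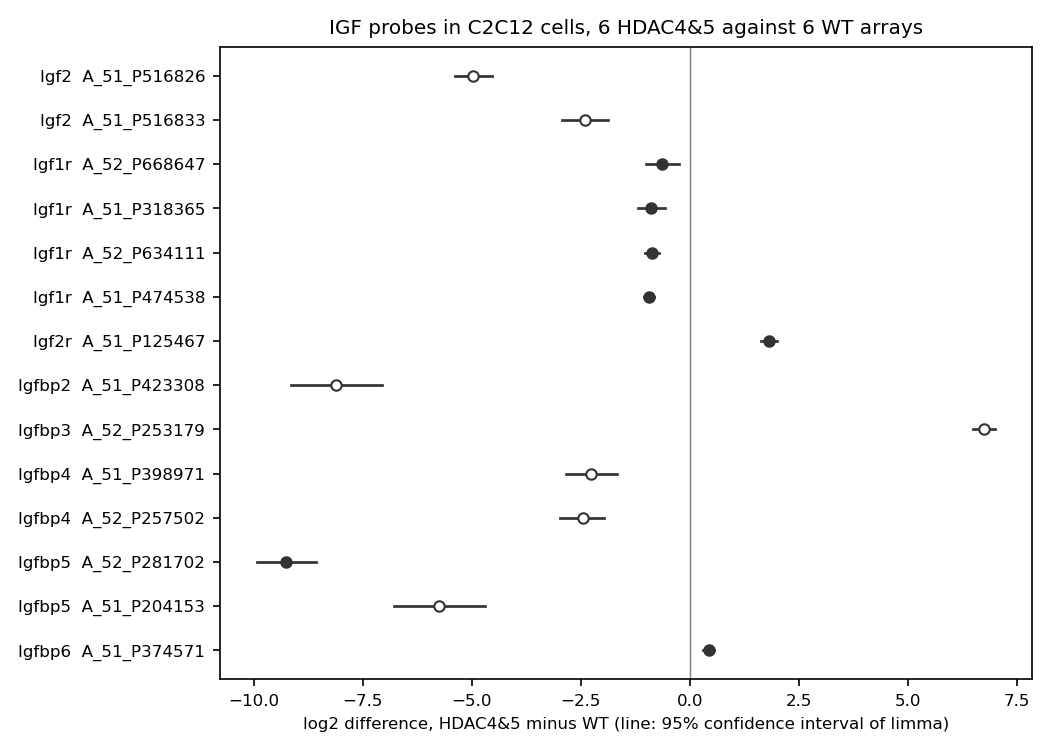
Difference of each tested IGF probe between 6 HDAC4&5 and 6 WT arrays of C2C12 cells (x axis: log2 difference, HDAC4&5 minus WT; point: limma estimate; line: 95% confidence interval); open points mark probes that were saturated or not well above background throughout 1 group, for which the fold is a bound. Values run from -9.26 (Igfbp5) to 6.75 (Igfbp3), with the 4 Igf1r probes between -0.94 and -0.63.

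The binding proteins that fell the most are encoded by neighbouring genes. Igfbp2 and Igfbp5 lie tail to tail on chromosome 1 with 6093 bases between their nearest probes on mm9, and no gene of the RefSeq table lies between them on GRCm38.p6. Igfbp2, a secreted binder of both IGFs, was saturated on all 6 WT arrays, where it read 5.27 to 6.97. It read -2.70, -2.32 and -0.79 in HDAC4&5 cells at the lowest, median and highest array. With the 4 WT arrays whose spot was not marked as an outlier, it was at least 276-fold lower (difference -8.11, standard error 0.47, limma adjusted p = 4.12e-08). Igfbp5 (A_52_P281702, chr1:72904829-72904888, minus strand) read 4.73, 4.94 and 5.10 in the 5 WT arrays kept and -5.24, -4.57 and -3.38 in HDAC4&5 cells, with no overlap. Replicate 6 of the HDAC4&5 cells was not well above background. The difference was -9.26 (standard error 0.31, adjusted p = 7.17e-11), 614-fold, and -7.42 with normexp (adjusted p = 8.36e-10). Its other probe, A_51_P204153 (chr1:72907366-72907425), fell by 5.75 (at least 19.2-fold), and by 1.94 with normexp (adjusted p = 0.000391). On both Igfbp2 and Igfbp5 the 2 highest HDAC4&5 arrays were replicates 3 and 4, which shared slide 2: Igfbp2 read -0.83 and -0.79 there and Igfbp5 -3.45 and -3.38. Within slides 1, 2 and 3 the Igfbp5 difference was -9.49, -8.25 and -10.13, and the Igfbp2 difference was -8.96 and -6.57 within slides 1 and 2.

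Igfbp3, the main IGF carrier in blood together with the acid-labile subunit, ran the other way. Its brightest probe (A_52_P253179, chr11:7106594-7106653, minus strand) was well above background on no WT array, at -8.29 to -7.50, and on all 6 HDAC4&5 arrays, at -1.35 to -0.89. All HDAC4&5 arrays lay above all WT arrays, by 6.75 (standard error 0.11, limma adjusted p = 3.06e-14) or at least 23.7-fold, with 6.79, 6.73 and 6.72 within the slides. With normexp the difference was 2.85 (adjusted p = 1.62e-08). The probe A_52_P851352 read -8.04 to -7.36 and -4.98 to -4.58 and was well above background on 4 of 6 HDAC4&5 arrays and on no WT array. The third, A_51_P228472, read -6.68 to -4.76 and -5.70 to -4.02, and neither of these was tested.

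Of the remaining binding proteins, Igfbp4, which is cut by the protease PAPPA to free its IGF, fell with both probes. A_51_P398971 read -4.79 to -4.32 in WT cells and -7.29 to -5.45 in HDAC4&5 cells, where no array was well above background, so it was at least 1.83-fold lower (adjusted p = 6.06e-06). A_52_P257502 was at least 2.26-fold lower (adjusted p = 6.37e-07). With normexp, the Igfbp4 probes differed by 0.05 and -0.02 and no longer passed. Igfbp6, which prefers IGF2, had the smallest difference of the 14 probes. It read 2.70 to 2.96 in WT cells and 3.13 to 3.37 in HDAC4&5 cells, a rise of 0.43 (standard error 0.06, adjusted p = 1.82e-05), 1.35-fold, and 0.26 with the deposited matrix (adjusted p = 0.0865). Igfbp7, a distant relative that binds IGFs weakly, had its spot marked as an outlier on 12 of the 19 arrays. With only 1 WT array left it was not tested in cells. With those spots kept it read 4.83 to 5.01 in WT cells and 4.19 to 4.29 in HDAC4&5 cells, without overlap, a difference of -0.65 (standard error 0.05, limma adjusted p = 3.22e-08).

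Promoters are shown for both neighbouring genes that fell and for Igfbp3 and Igf2r, the genes with the largest rises. The sequences are those of RefSeq on GRCm38.p6, from 250 bases before to 50 bases after a start of transcription, and capitals mark each E-box (CANNTG, which reads the same on both strands), the motif bound by MyoD-type factors among many others. Igfbp2 is at chr1:72824230-72824529 (plus strand), Igfbp5 at chr1:72874816-72875115 (minus strand), Igfbp3 at chr11:7213874-7214173 (minus strand) and Igf2r at chr17:12769657-12769956 (minus strand).
Igfbp2: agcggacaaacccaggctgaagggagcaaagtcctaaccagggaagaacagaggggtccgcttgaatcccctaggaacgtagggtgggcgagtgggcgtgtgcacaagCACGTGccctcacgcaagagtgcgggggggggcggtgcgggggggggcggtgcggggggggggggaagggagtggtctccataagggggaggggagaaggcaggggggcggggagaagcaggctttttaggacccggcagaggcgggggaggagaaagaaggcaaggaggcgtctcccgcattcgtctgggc
Igfbp5: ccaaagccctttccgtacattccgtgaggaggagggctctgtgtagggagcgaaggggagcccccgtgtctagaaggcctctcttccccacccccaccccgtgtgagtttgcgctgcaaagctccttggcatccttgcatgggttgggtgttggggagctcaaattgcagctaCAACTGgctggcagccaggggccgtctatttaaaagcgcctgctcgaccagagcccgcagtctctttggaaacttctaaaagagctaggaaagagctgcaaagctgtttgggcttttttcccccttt
Igfbp3: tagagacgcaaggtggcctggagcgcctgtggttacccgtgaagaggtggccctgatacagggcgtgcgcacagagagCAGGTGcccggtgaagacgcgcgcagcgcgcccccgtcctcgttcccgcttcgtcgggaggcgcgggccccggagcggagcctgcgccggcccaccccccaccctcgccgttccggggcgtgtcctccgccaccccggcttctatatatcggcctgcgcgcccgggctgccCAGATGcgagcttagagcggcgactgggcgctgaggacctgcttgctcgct
Igf2r: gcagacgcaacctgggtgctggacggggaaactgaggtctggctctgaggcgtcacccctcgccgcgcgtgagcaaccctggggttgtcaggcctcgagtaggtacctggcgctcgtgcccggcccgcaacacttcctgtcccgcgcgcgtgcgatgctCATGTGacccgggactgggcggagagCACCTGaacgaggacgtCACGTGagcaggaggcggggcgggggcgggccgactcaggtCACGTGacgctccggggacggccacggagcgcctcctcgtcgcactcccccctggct
Igfbp2 and Igfbp5 each hold 1 E-box in this window, Igfbp3 holds 2 and Igf2r holds 4. Igfbp2 has 2 starts in the RefSeq table, and the window of the other one (chr1:72825137-72825436), not shown, holds 2 E-boxes and 0 GC boxes. Of the 32851 RefSeq promoters of this length, 72.3% hold at least 1, with a mean of 1.39. CAGCTG, which is 1 form of CANNTG, is in none of the 4 windows and in 16.3% of all promoters, and the MEF2 motif in none of the 4 and in 3.69%. The GC box GGGCGG, searched on both strands, occurs 3 times in the Igfbp2 and Igf2r windows, in neither of the other windows, and in 35.7% of all promoters.

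Other genes of the pathway moved both ways in HDAC4&5 cells. Among 11 proteases of binding proteins and their inhibitors, 7 were tested, 2 rose, 3 fell and 2 did not pass. Stc2, which inhibits PAPPA, was at least 44.6-fold lower (adjusted p = 4.34e-11), Pappa differed by -0.74 (adjusted p = 2.37e-08) and Htra1, a protease that cuts IGF binding proteins, was at least 1.98-fold higher (adjusted p = 2.23e-05). Of the 4 genes that bind Igf2 mRNA or neighbour Igf2, 2 rose and 2 fell, among them H19, the non-coding RNA next to Igf2 on chromosome 7, by -9.92 (adjusted p = 1.48e-10), and Igf2bp3, at least 17.6-fold lower. Of the 6 genes of growth hormone input, 2 rose, 3 fell and 1 did not pass, with Socs2, a feedback inhibitor of growth hormone signalling, at -8.86 (adjusted p = 6.85e-11) and Stat5b at 1.01. Of the 28 adaptors and kinases below the receptor, 23 were tested, 10 rose, 9 fell and 4 did not pass, with a median of 0.04. In that list Foxo1 differed by 1.20 and Mtor by -1.18. Of the 7 relatives of the ligands, binding proteins and receptors, 2 were tested and both fell, Insr by 0.37 and Ins2 at least 9.43-fold.

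Healthy soleus muscle and WT cells differed in nearly every IGF gene. In Con muscle Igf1, Igf2, Igf2r, Igfbp3 and Igfbp4 were higher (Igfbp4 no longer past the test with quantile normalization) and Igfbp2 and Igfbp5 lower than in WT cells, while Igf1r depended on the probe. Of 17 probes tested (9 genes), 15 passed the adjusted p in limma with slide as a random block, 10 higher and 5 lower, beside 65.5% of 22559 probes on the whole array (30.5% higher, 35% lower). All 17 were free of overlap between the groups, beside 69% of all probes. Tissue and culture, slide and extraction cannot be told apart here, and fewer cells of a type and less RNA per cell cannot be told apart in whole muscle. The same WT arrays serve as the reference for the HDAC4&5 cells. The median difference over all probes was -0.172, and it moved to -0.448 with quantile normalization and to 0.262 with normexp, so a difference is to be read relative to this shift. With quantile normalization 13 IGF probes passed, 7 higher and 6 lower, beside 67.3% of all probes (27.1% higher, 40.2% lower). With the requirement of a signal in both groups, 10 were tested and 8 passed, 3 higher and 5 lower, and the share of all probes under this filter is not given.

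Igf1, read by A_51_P147942 (chr10:87393516-87393575), was 1.88, 2.02 and 1.94 in the 3 Con muscles, against -8.22 to -7.44 in WT cells. It was at least 202-fold higher in muscle (limma adjusted p = 1.89e-09), and at least 107-fold and 83.4-fold with A_52_P536434 and A_52_P351116. With normexp these probes differed by 5.53, 4.78 and 4.25, and all 3 passed. Igf2 (A_51_P516826) read 1.34, 2.05 and 3.80 in Con muscle and was higher by 5.11 (adjusted p = 1.15e-05), 34.5-fold, and by 4.50 with normexp. Igf2r read 4.54 and 5.66 on the Con arrays kept and was higher by 4.84 (adjusted p = 9.01e-07). Igfbp3 (A_52_P253179) was at least 17.8-fold higher in muscle, with a difference of 2.46 under normexp (adjusted p = 0.00412). Igfbp4 was higher by 1.67 and 1.81 with its probes, with adjusted p of 0.0249 and 0.0435, which became 0.249 and 0.239 with quantile normalization. Igfbp2 read -1.38, 0.35 and -0.95 in Con muscle and was at least 114-fold lower than in WT cells (adjusted p = 0.000207). Igfbp5 was lower by a smaller margin, -0.79 and -0.98 (adjusted p = 0.0316 and 0.00509), and the first of these no longer passed without Con replicate 1 (-0.74, adjusted p = 0.0872) or without Con replicate 2 (-0.77, adjusted p = 0.085), and the second with normexp (-0.32, adjusted p = 0.192). Igf1r differed by -1.87, -0.95, -0.46 and 0.68 with its 4 probes, where -0.46 did not pass (adjusted p = 0.0689) and 0.68 turned to -0.17 with quantile normalization. Igfbp6 differed by -0.31 (95% confidence interval -0.73 to 0.11, adjusted p = 0.176). Igfbp7, with all spots kept, read 7.29 to 7.42 in Con muscle against 4.83 to 5.01 in WT cells, higher by 2.45 (adjusted p = 7.08e-07). Its spot was saturated on 1 of the 3 Con arrays, so this difference may be understated.

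**Figure D3:**
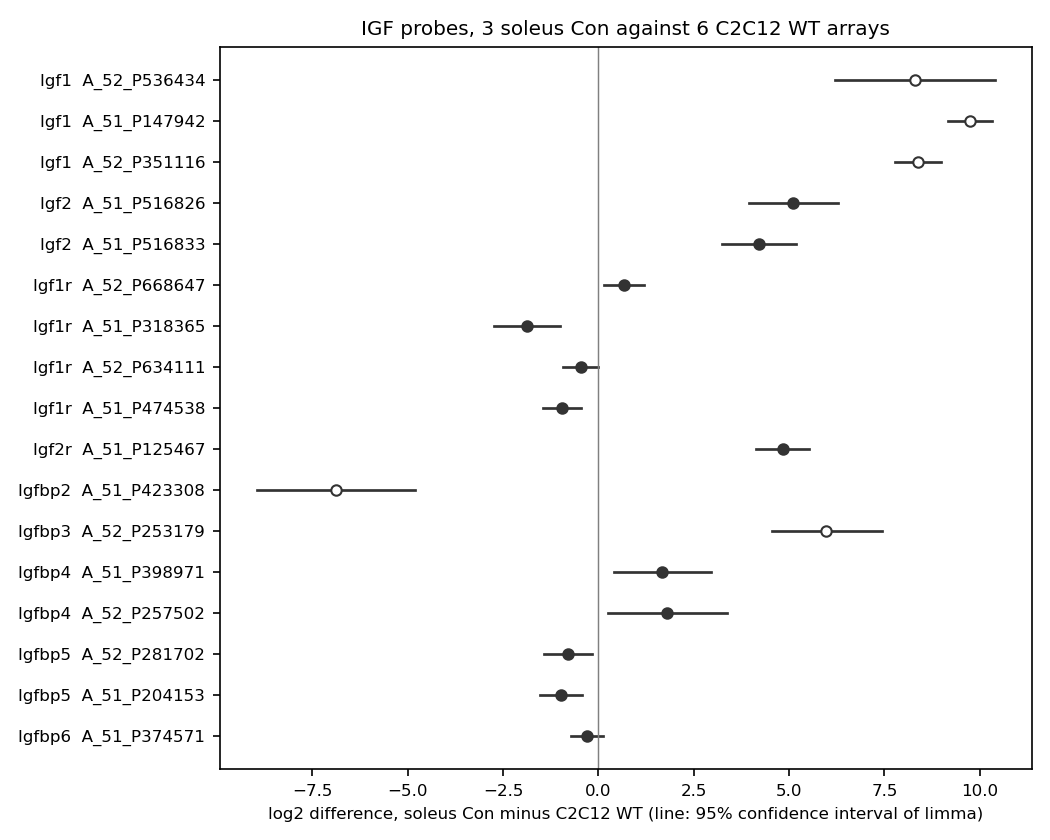
Difference of each tested IGF probe between 3 soleus Con and 6 C2C12 WT arrays (x axis: log2 difference, Con minus WT; point: limma estimate with slide as a random block; line: 95% confidence interval; open points: fold is a bound). The Igf1 probes sit between 8.31 and 9.75 and Igfbp2 at -6.88.

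Ordered over the 4 groups by the mean level of its brightest probe with all spots kept, Igf2 and Igfbp7 had the same order of means. The other genes each had one of their own, in part only through the order of Con and db muscle, which overlapped for every gene but Igfbp7. Igf1 and Igf2r differed only in that order, as did Igf2 and Igfbp4. With outlier spots dropped, Igf2r read 5.10 in Con and 4.51 in db muscle, which is the order of Igf1. The Con arrays left were then 1 on slide 4 and 1 on slide 5, and the db arrays left were on slide 4 only. Igf2r ran from db (5.31) and Con (5.19) muscle, which overlapped, to HDAC4&5 (2.08) and WT cells (0.26), which stood apart from each other and from muscle. Igf2 ran from Con (2.35) and db muscle (1.86), which overlapped, to WT (-2.46) and then HDAC4&5 cells (-7.42). Igfbp5 was highest in WT cells (4.94), followed by Con (4.04) and db muscle (3.77), which overlapped, and far below by HDAC4&5 cells (-4.34). Igfbp2 was highest in WT cells (6.29), and Con muscle (-0.66), HDAC4&5 cells (-1.94) and db muscle (-2.05) overlapped from one to the next. For Igfbp3, HDAC4&5 cells (-1.15), Con (-1.56) and db muscle (-1.74) overlapped and WT cells (-7.89) lay apart. Igf1 (A_52_P536434) ran from Con (1.1) and db muscle (0.88) to HDAC4&5 (-5.13) and WT cells (-7.06), with overlap within muscle and within cells only, where its probe A_51_P147942 did not overlap within cells. Igfbp4 ran from db (-1.16) and Con muscle (-2.49), which overlapped, to WT (-4.20) and HDAC4&5 cells (-6.66), which stood apart. Igf1r (A_51_P474538) ran from WT cells (0.21) through db muscle (-0.54) and HDAC4&5 cells (-0.73) to Con muscle (-0.83), each overlapping the next. Its other probes each gave another order. On A_51_P318365 WT cells (-0.80) stood apart above HDAC4&5 cells (-1.69), Con (-2.49) and db muscle (-2.52). On the dim A_52_P668647 db (-3.45) and Con muscle (-3.55) had higher means than WT (-4.15) and HDAC4&5 cells (-4.78). Igfbp6 was highest in HDAC4&5 cells (3.26), which did not overlap WT cells (2.83), and WT cells, db (2.69) and Con muscle (2.50) overlapped from one to the next. The highest db array (3.14) reached into the range of the HDAC4&5 arrays, which began at 3.13. Igfbp7, read mostly from spots marked as outliers, had no overlap between any neighbours, from Con (7.37) and db muscle (6.91) to WT (4.90) and HDAC4&5 cells (4.25). Its spot was saturated on 1 Con and 2 db arrays, so its order within muscle is not firm.

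In db soleus muscle no IGF probe passed the adjusted p. Of the 17 probes tested (10 genes), 0 passed in limma, beside 0.00541% of 18471 probes on the whole array, 3 had an unadjusted p under 0.05, beside 6.43%, and 3 did not overlap between groups, beside 10.2%. With slide as a block 0.173% of all probes passed and again 0 of the 17, and the same count of 0 was found with the replicate number as a block and with the methods' t-test after adjustment. The median difference of the 17 was -0.31, and that of all probes 0.02. The intervals were wide: for Igf1 A_52_P536434 the difference was -0.22 with a 95% confidence interval from -1.46 to 1.02. With 7 arrays, any difference within that interval is thus compatible with the values of this probe.

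Igfbp4 was the member with the smallest p. Its probe A_51_P398971 read -2.39, -3.96 and -2.41 in the 3 Con muscles and -0.42, -1.43, -1.75 and -1.33 in the 4 db muscles. All db muscles were above all Con muscles, by 1.69 (95% confidence interval 0.54 to 2.84), with an unadjusted p of 0.00958 and an adjusted p of 0.627 in limma, and a two-sided exact permutation test gave p = 0.0286, the lowest value it can take with these numbers of arrays. The difference was 2.25 within slide 4 and 0.86 within slide 5. Con replicate 2 was not well above background. The second Igfbp4 probe, A_52_P257502, read -1.78, -3.77 and -1.92 in Con and -0.47, -0.94, -2.04 and -1.19 in db muscle and overlapped between groups (difference 1.33, adjusted p = 0.775).

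Igfbp2 read -1.38, 0.35 and -0.95 in Con muscle and -1.37, -2.77, -2.24 and -1.81 in db muscle. The groups overlapped only through Con replicate 1 and db replicate 1, and the difference was -1.39 (95% confidence interval -2.55 to -0.22, unadjusted p = 0.025 and adjusted p = 0.708 in limma). Within slides 4 and 5 it was -1.55 and -1.08. The Igfbp5 probe A_51_P204153 differed by -1.47 (unadjusted p = 0.0219, adjusted p = 0.682 in limma) over only 2 db arrays, because the spots of the other db arrays, -0.30 and -0.45, were marked as outliers. With them kept the difference was 0.17, and the other Igfbp5 probe differed by -0.42 (95% confidence interval -1.77 to 0.94).

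The mean of Igf1 was lower in db muscle with each of its 3 tested probes, and none passed. A_52_P351116 read 0.75, 0.74 and 0.52 in Con and -0.40, -0.66, -0.19 and 0.66 in db muscle (difference -0.82, 95% confidence interval -1.67 to 0.03, adjusted p = 0.783). A_51_P147942 read 1.88, 2.02 and 1.94 in Con and 1.32, 1.32, 1.29 and 2.05 in db muscle, so that on both probes db replicate 4 was the only db muscle within or above the Con values. Igf2 (A_51_P516826) differed by -1.06 over 3 against 3 arrays and by -0.49 with all spots kept, neither past the test. Igf2r was tested on 2 arrays a group and differed by -0.59 (95% confidence interval -2.02 to 0.85), and by 0.12 with all spots kept. The 2 db arrays tested lay on slide 4, and the Con arrays lay 1 on slide 4 and 1 on slide 5. Within slide 4, and with slide as a block, the Igf2r difference was -0.03. Igf1r differed by -0.21 to 0.29 over its 3 tested probes, Igfbp3 by -0.18, Igfbp6 by 0.18 and Igfbp7 by -0.31 over 2 arrays a group. The Igfbp7 spot was saturated on the 2 db arrays and on 1 of the 2 Con arrays, so its difference is not exact.

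**Figure D4:**
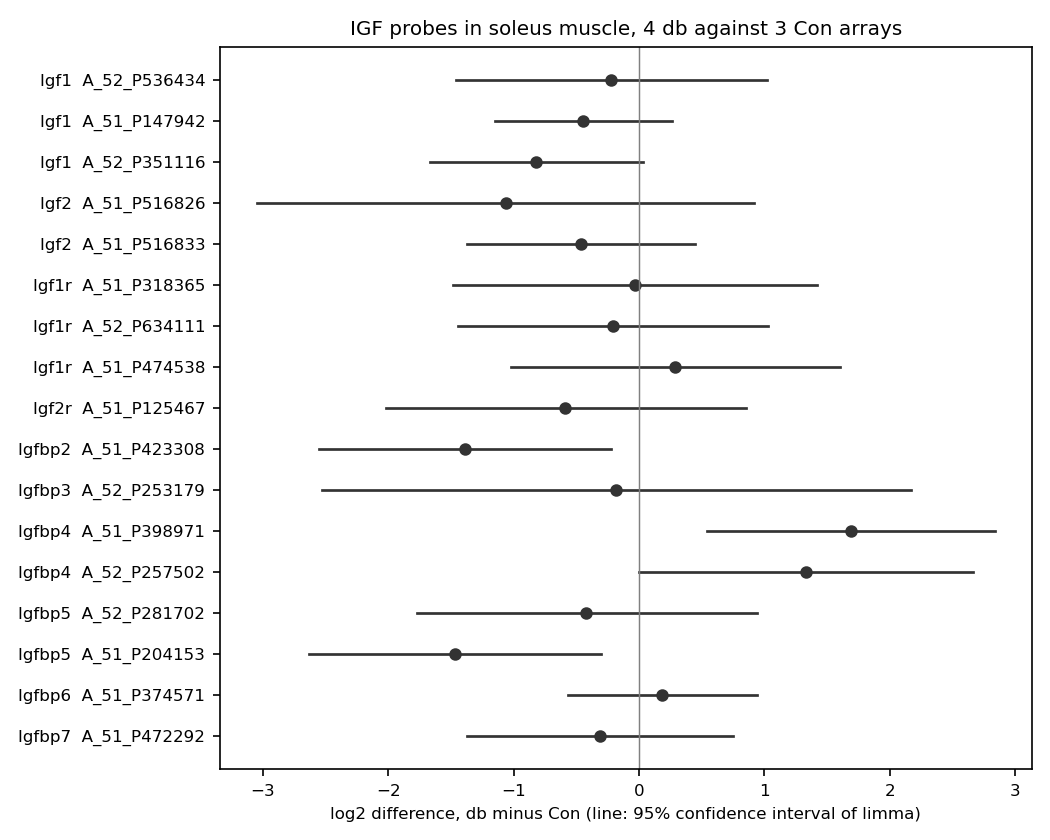
Difference of each tested IGF probe between 4 db and 3 Con soleus arrays (x axis: log2 difference, db minus Con; point: limma estimate; line: 95% confidence interval; fewer arrays where spots were marked as outliers). Estimates run from -1.47 (Igfbp5 A_51_P204153) to 1.69 (Igfbp4 A_51_P398971) and none passed the adjusted p.

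Several IGF probes differed between the slides of the soleus arrays in both genotypes. Igfbp3 (A_52_P253179) read -0.44 and -0.74 in Con and 0.02 and -0.73 in db muscle on slide 4, and -3.50 in Con and -3.13 and -3.12 in db muscle on slide 5. Slide 5 was thus lower by 2.91 among Con and by 2.76 among db muscles, and 1.71% of the tested probes had a gap between slides as large as its -2.77 over all 7 arrays. Igf1r A_51_P318365 was lower on slide 5 by 1.56 over all arrays, while its other tested probes were higher by 0.99 and 1.26. Igf2 (A_51_P516826) was higher on slide 5 by 2.18, a gap reached by 4.85% of tested probes. Igfbp6 and the second Igfbp4 probe both differed by 0.02 between slides. Within slides the db minus Con difference of Igfbp3 was 0.23 and 0.38.

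**Figure D5:**
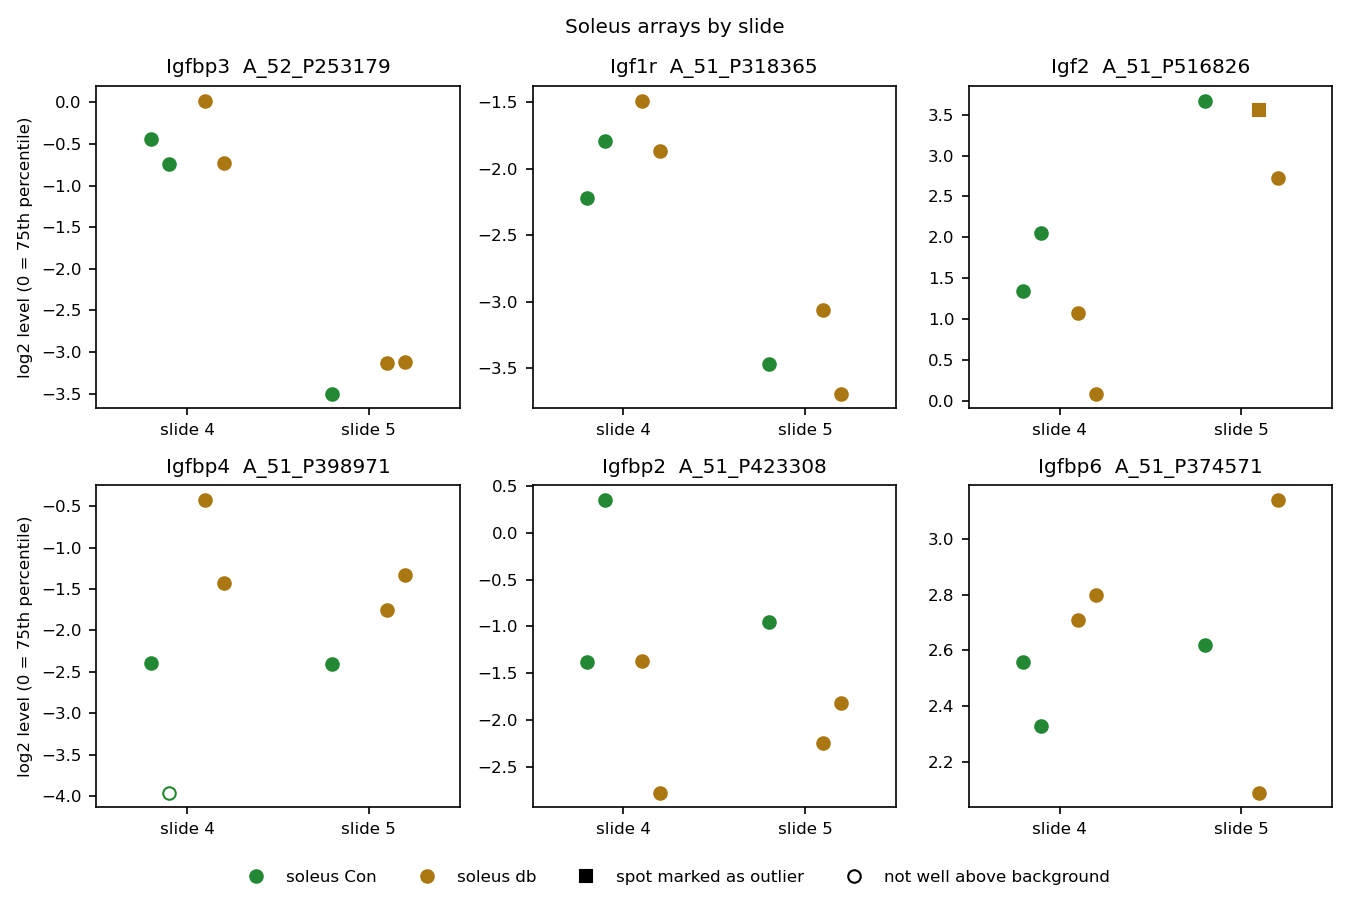
Level of 6 IGF probes in the 7 soleus arrays by slide (y axis: log2 units from the array's 75th percentile, separate scale per panel; colours: Con and db; square: spot marked as outlier; open: not well above background). Igfbp3 and Igf1r A_51_P318365 are lower on slide 5 in both genotypes, Igf2 is higher there, and Igfbp4 A_51_P398971 does not overlap between genotypes (adjusted p = 0.627).

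Markers of other cell types of the muscle were summed as well. The summed level of 6 endothelial markers was 35.9 to 41.1 times the 75th percentile in Con and 16.4 to 26.8 times in db muscle, that of 7 fibroblast markers 392 to 481 and 262 to 344 times, and that of 4 erythroid markers 173 to 376 and 91.1 to 159 times, so that the ranges did not overlap, with all markers of the 3 lists well above background on every array. Without a block no single marker of these lists passed the adjusted p, where 6, 7 and 4 were tested. With slide as a block 1 erythroid and 1 adipocyte marker passed, and 0 endothelial and 0 fibroblast markers, beside 0.173% of all probes. The median differences of the endothelial, fibroblast and erythroid lists were -0.75, 0.21 and -1.69. The fibroblast sum was thus lower through Col1a1 (-1.43, adjusted p = 0.648) and Col3a1 (-0.88, adjusted p = 0.777), while Pdgfra, Lum, Dpt and Mfap5 differed by 0.21 to 0.37 and Dcn by -0.07. For adipocytes (224 to 439 and 169 to 310), macrophages (4.7 to 13.7 and 7.33 to 18.8), smooth muscle and pericytes (225 to 421 and 218 to 320) and slow fibres (1020 to 2710 and 831 to 2520) the ranges overlapped. Their part in the IGF values was not tested. No gene of the 5 pathway lists passed the adjusted p in db muscle, where 2, 5, 2, 6 and 24 genes were tested. The largest difference among them was that of Cish, a STAT5 target, at -3.70 (adjusted p = 0.231, and 0.0509 with slide as a block), beside -0.73 for Socs2, the other growth hormone feedback gene (adjusted p = 0.758).

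The genes whose pattern over the arrays was most like that of each IGF gene were taken from 16949 probes with a gene name that were well above background throughout at least 1 group. For Igf1 they were P2ry6, Sparcl1 and Hsd11b1, with Pearson r of 0.985, 0.983 and 0.983 over 19 arrays. For Igf2 they were Itga6, St3gal5 and Calhm5 (0.992, 0.991 and 0.989 over 18 arrays), and for Igf2r Ddit4l, Tal1 and Arhgap24 (0.995, 0.995 and 0.993 over 16 arrays). Sirpa and Heyl were among the genes most like Igfbp5 (0.992 and 0.991 over 17 arrays), Igfbp2 was most like Glcci1 (0.972 over 17) and Igfbp3 most like Mvb12b (0.983 over 19). Igfbp4 was most like P3h2 (0.984), Igfbp6 most like Tent4b (0.922) and Igf1r most like Fdxacb1 (0.931), all over 19 arrays. All of these r values share the 4 groups and the slides, so they describe group means as much as arrays.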

How the data were processed

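Each of the 12 C2C12 and 7 soleus samples was hybridised to its own 1-colour Agilent array from 100 ng of RNA. Spot intensity was deposited by the authors as Agilent Feature Extraction 9.5.1.1 output, in which the processed intensity has its background subtracted and is unscaled. The authors' series matrix was also deposited and holds, per array, the ratio of processed intensity to 1 constant. Its columns labelled db replicates 1 and 2 matched the scanner values of db replicates 3 and 4, and 4 other soleus columns matched no array (median absolute deviation 0.339 to 0.438 on the log2 scale), so it was used by group only.

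The 75th percentile of each array was subtracted on the log2 scale. Control spots and spots flagged by the scanner software as outliers were dropped, saturated spots kept, and repeat spots averaged. A probe entered a test if all arrays of 1 of its groups read it well above background and each group kept more than 1 array. Tests were made with limma (version 3.58.1) under R (version 4.3.3), and p-values were adjusted over all tested probes by Benjamini and Hochberg, with 0.05 as the threshold. Slide was a random block (consensus correlation 0.655) when muscle was set against cells. Where a group was saturated or below background throughout, the fold is a bound, for which a dim array counts at its dimmest signal well above background. The steps were tested on simulated data, and the number of arrays limits precision. Summed marker levels, orders of groups and slide gaps use all spots.

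The members and the gene lists were chosen with earlier results of these data known. Named genes were every probe of the members, Hdac4 and Hdac5, list genes with the largest and smallest differences or on which a result turns, and the 3 genes most correlated with the brightest probe of a member. Irs2 is not listed under that name on this array. The MEF2 motif was CTA and TAG with any 4 bases between. Alternatives were quantile normalization, normexp (offset 50), other filters, 1 probe or the mean of probes per gene, the matrix, slide or replicate number as a block, the methods' t-test, a fold of 1.5 and single muscles left out. Keeping outlier spots, averaging the C2C12 arrays of a group by slide, and leaving muscles out with slide as a block, were chosen after seeing the data.

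Deviations from the group mean correlated between arrays of equal replicate number (0.367 to 0.704 for 6 pairs in cells, 0.445 to 0.731 for 3 in muscle). They correlated as much between other numbers of 1 slide (0.356 to 0.717 and 0.359 to 0.803) and not between slides (-0.641 to 0.104 and -0.765 to -0.376). The replicate numbers thus carry the slide. Taking deviations from the group mean lowers the correlations between slides by itself, so their negative sign is not a separate result. Some genes that the rule for named genes or the likeness ranking would give are not reported here.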

Additional observations from a re-analysis of the deposited data

Results flagged for a closer look

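Among 31 sets of at least 4 arrays of 1 group and 1 IGF probe, 1 held an array far from the rest, where 1.55 are expected by chance. Igf1 (A_51_P147942) read 2.05 in db replicate 4, while the nearest of the other db muscles read 1.32, and this gap took 0.96 of the range of the group. It lay above the highest Con muscle, which read 2.02.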

How the results depend on the processing

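Of the 14 IGF probes that passed in C2C12 cells, 9 of 14 passed with normexp, 6 of 6 with a signal required in both groups (fewer probes tested) and 7 of 9 with the deposited matrix. Of all probes, 48.9% passed with normexp and 48.9% with the matrix, and the share with a signal required in both groups is not given. With normexp (offset 50), Igf2 A_51_P516833 turned to 0.01, Igfbp4 A_51_P398971 to 0.05 and Igf1r A_52_P668647 to 0.26. The part of the offset in these values was not tested. Normexp moved the median of all probes from 0.055 to 0.162 and the matrix moved it to -0.088, with 19.2% of probes higher and 29.7% lower with the matrix against 36.5% and 31.9%. The replicate block left 14 in cells, as did slide as a block, and 0 in db muscle, and it changed no other call of an IGF probe. In db muscle the count was 0 in limma after adjustment, 3 at an unadjusted p under 0.05 and 2 with the methods' t-test unadjusted. The share of all probes with the unadjusted t-test is not given. Leaving out each muscle in turn gave 0 to 0, also with slide as a block. Quantile normalization and the matrix moved the median of all probes there to 0.124 and 0.253. For Con muscle against WT cells the 15 became 8 of 10 with a signal required in both groups, and 12 to 16 with single muscles left out. The share of all probes is not given for either setting, so these counts have no reference. Igf1r A_52_P668647 turned to -0.17 with quantile normalization, and the cause was not tested. Of the single probes under all alternatives, 688 values kept direction and side of the threshold, 44 changed sign with neither value past it, 10 fell below it, 10 passed it and 4 turned. Probes below background in 1 group have only a bound, and 3 against 4 muscles limit the soleus comparison.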
